A study of Danio rerio with 6 samples.

Results

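Expression of 10 genes of the endothelium and endocardium was compared between ventricles of old (4 years) and young (7 months) zebrafish. The genes were *kdrl*, *flt1*, *tek*, *tie1*, *cdh5*, *pecam1*, *fli1a*, *klf2a*, *lyve1b* and *vwf*, chosen by their symbol from the 32520 genes of the count table. All 10 had a single Ensembl identifier. The name table holds 7 of them under the same spelling and *tie1* in capitals. It lists *fli1a* as FLI1 and *pecam1* as *pecam1a*, which were matched through RefSeq synonyms. The fish of both ages were uninjured wild types bred from AB and TU fish, and no allele or agent distinguished the groups. There were 3 ventricle libraries per age, numbered 1, 3 and 5 at 4 years and 1, 2 and 5 at 7 months. The authors picked these samples from a larger set by RNA integrity. The labels do not say whether a library came from 1 animal or from several, and p-values measure the spread between these libraries. The ventricle was taken whole, so fewer endothelial cells and less RNA per cell cannot be told apart in any of these values.

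The endothelium lines every vessel, and the endocardium is its continuation on the inner surface of the heart, where it covers the trabeculae and the valves. In the adult zebrafish ventricle, coronary vessels supply the outer compact muscle. Endothelial cells receive vascular endothelial growth factor (VEGF) through receptor tyrosine kinases such as Kdrl, and angiopoietins through Tek. VE-cadherin, the product of *cdh5*, and Pecam1 hold neighbouring cells together, ETS factors such as Fli1a keep the cells' identity, and Klf2a responds to blood flow. Von Willebrand factor is stored in and secreted from endothelial cells, and Lyve1b is a hyaluronan receptor of lymphatic endothelium.

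The libraries held between 17742389 and 22547518 counted reads. Values are given as CPM, counts relative to the library total after scaling by edgeR's TMM factors. A library without a read for a gene may have had up to 3 reads, which is 0.124 to 0.161 CPM and covers counting error only. Leukocyte markers (8 of 12 listed genes measured) summed to 263 to 718 CPM in old and 135 to 228 CPM in young ventricles. The sums of 4 erythrocyte markers ran the other way, with 343 to 370 CPM in old and 718 to 2060 CPM in young ventricles. Cardiomyocyte markers summed to 69400 to 86000 CPM and 76100 to 98300 CPM. Young replicate 1 stood apart in the atrial myosin gene *myh6*, named after its values were seen, with 301 CPM against 6.13 to 30.9 CPM in the other 5 libraries. The sum of 3 atrial markers, *myh6* included, was 3020 CPM in this library against 2460 to 4400 CPM in the others. Most of it came from the other atrial markers. Of these, *nppa* is also on the cardiomyocyte list, so the sum is not a measure of atrial tissue. How far differences in cell content take part in the results was not tested.

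Of the 10 endothelial genes, 0 passed the threshold between old and young ventricles, an adjusted p under 0.05. By the quasi-likelihood test of edgeR, adjusted over 24835 genes after Benjamini and Hochberg, 0.858% of all genes passed (0.519% higher and 0.338% lower in old ventricles), and the adjusted p-values of the 10 genes lay between 0.372 and 0.995. At an unadjusted p under 0.05 the count was 0 of 10 as well, against 15.1% of all genes tested. DESeq2's Wald test and limma-voom also called 0 of them. The fitted level was lower in old ventricles for 7 genes and higher for 3. Their median was -0.11 on the log2 scale, old minus young, against 0.02 over all genes tested and -0.05 over the expressed genes. The median of the 10 counts *lyve1b* (-1.36), which had few reads. Among the other 9 genes the middle value was -0.022, that of *fli1a*. Scaling by library size alone moved the median of the expressed genes by 0.17, to 0.12, and gave a median of 0.08 for the 10 genes. In 1 of the 10 genes, *tie1*, the old and young libraries did not overlap, whereas this was so for 20% of all genes tested (10.4% higher and 9.66% lower in old ventricles). The 9 genes other than *lyve1b* had at least 422 reads in every library.

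**Figure D1:**
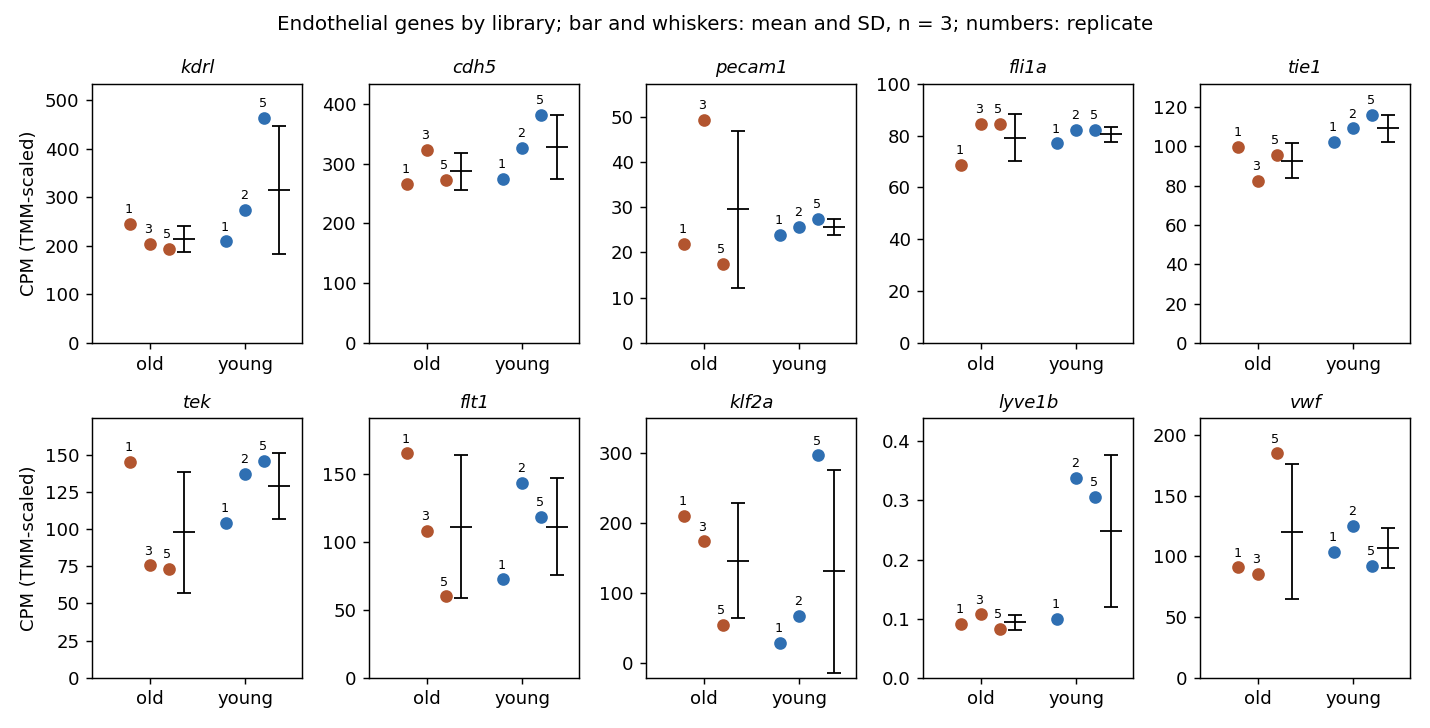
CPM (TMM-scaled, y axis, a separate scale per panel) of the 10 endothelial genes in the 3 old (orange) and 3 young (blue) libraries, labelled by replicate number, with the mean and SD of each group at the right of its points. The groups overlap in every panel except *tie1*, and *klf2a* has the widest spread among the well-counted genes, from 28.9 to 297 CPM.

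**Figure D2:**
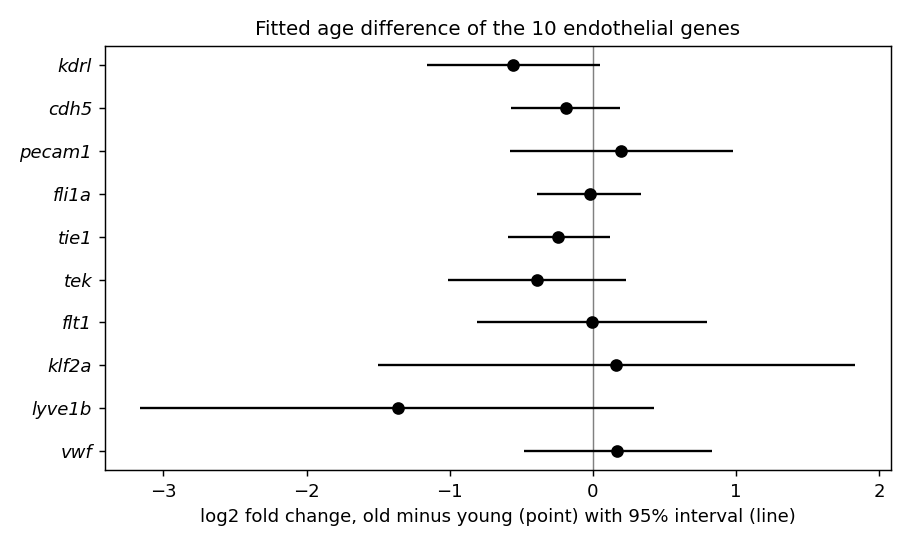
Fitted log2 fold change (x axis, old minus young) of each gene from edgeR's fit, as a point with its 95% interval as a line. All 10 intervals include 0, and those of *cdh5*, *fli1a* and *tie1* are the narrowest.

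*kdrl* (ENSDARG00000105215) encodes a VEGF receptor kinase and is a standard marker of zebrafish endothelium. It had 245, 204 and 194 CPM in old replicates 1, 3 and 5 and 209, 274 and 463 CPM in young replicates 1, 2 and 5. The groups overlapped in a single library, since young replicate 1 lay below old replicate 1, and young replicate 5 stood far above the rest. The means were 214 ± 27.3 CPM (SD, n = 3) in old and 315 ± 132 CPM (SD, n = 3) in young ventricles. This was a fitted difference of -0.56 on the log2 scale (95% interval -1.16 to 0.047, SE 0.27), with an adjusted p of 0.372 in edgeR's test. It had the lowest unadjusted p of the 10 genes, 0.067 in the same test. Without young replicate 1 the log2 fold change was -0.77, and without young replicate 5 it was -0.17.

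*kdr* (ENSDARG00000017321), the other zebrafish VEGF receptor gene of this type, was on a list of VEGF genes and not among the 10. It had 47.8, 49.2 and 33.0 CPM in the old and 58.6, 63.7 and 73.8 CPM in the young libraries. Every young library lay above every old one, and the log2 fold change of -0.59 (SE 0.20) had an adjusted p of 0.205 in edgeR's test.

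*flt1* (ENSDARG00000019371) encodes a receptor that binds VEGF tightly and limits its supply to other receptors. Its levels were 165, 108 and 59.8 CPM in old replicates 1, 3 and 5 and 72.3, 143 and 118 CPM in young replicates 1, 2 and 5. Old replicate 1 was the highest and old replicate 5 the lowest of all 6 libraries, so the old group enclosed the young one. The group means were both 111 CPM, with an SD of 52.5 in old and 35.9 in young ventricles (n = 3 each). A log2 fold change of -0.0042 had a 95% interval from -0.81 to 0.80, or from 0.572 to 1.74 times the young level (adjusted p = 0.995 in edgeR's test).

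The angiopoietin receptor gene *tek* (ENSDARG00000028663) had 145, 75.5 and 73.4 CPM in the old and 104, 137 and 146 CPM in the young libraries. Old replicates 3 and 5 lay below every young library, while old replicate 1 lay level with the highest young one. The log2 fold change was -0.39 (SE 0.28, 95% interval -1.01 to 0.23), with an adjusted p of 0.554 in edgeR's test. Leaving out old replicate 1 gave -0.79 and an adjusted p of 0.098, the lowest that any of the 10 genes reached in the 16 other settings tried.

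*tie1* (ENSDARG00000004105) encodes a related receptor that has no known strong ligand of its own and acts together with Tek. It had 99.8, 82.5 and 95.4 CPM in the old and 102, 109 and 116 CPM in the young libraries. All 3 young libraries were above all 3 old ones, but the nearest values, 99.8 and 102 CPM, were close together. The means of 92.6 ± 9 CPM (SD, n = 3) and 109 ± 6.91 CPM (SD, n = 3) differed by -0.24 on the log2 scale (95% interval -0.59 to 0.12, SE 0.16). Its adjusted p was 0.539 in edgeR's test.

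The genes around these receptors came from a list of angiopoietins and TIE signalling, of which 6 were tested and 0 passed the threshold. At an unadjusted p under 0.05 there were 4, against 15.1% of all genes tested. The median log2 fold change of this list was -0.55, or -0.72 with genes near the floor set to their bound or left out. *angpt1* (ENSDARG00000030364), the activating ligand of Tek, had 7.75, 19.0 and 7.23 CPM in the old and 27.9, 20 and 33.1 CPM in the young libraries. Its groups did not overlap, although old replicate 3 and young replicate 2 nearly met. The log2 fold change was -1.26, with an SE of 0.37 and an adjusted p of 0.154 in edgeR's test, and the adjusted p was under 0.05 in 3 of the 16 other settings. *svep1* (ENSDARG00000013526), an extracellular matrix protein gene, had 30.5, 19.3 and 24.7 CPM in the old and 45.3, 38.4 and 38.8 CPM in the young libraries. This was a log2 fold change of -0.72, with an SE of 0.21 and an adjusted p of 0.146 in edgeR's test. *ptprb*, named after its values were seen, encodes a phosphatase that acts on Tek and VE-cadherin. It had 110, 102 and 114 CPM in the old and 122, 156 and 150 CPM in the young libraries (log2 fold change -0.39, adjusted p = 0.302 in edgeR's test). As with *tie1*, its young libraries were all above the old ones. *angpt2b*, also named after its values were seen, had 3, 0 and 1 reads in the old and 0 reads in every young library.

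*cdh5* (ENSDARG00000075549), the VE-cadherin gene, had 266, 323 and 272 CPM in the old and 274, 326 and 381 CPM in the young libraries. Its old and young values interleaved, with old replicate 3 almost equal to young replicate 2. The means were 287 ± 31.4 CPM (SD, n = 3) and 327 ± 53.7 CPM (SD, n = 3). On the log2 scale the difference of -0.19 had a 95% interval from -0.57 to 0.19, that is between 0.674 and 1.14 times the young level, and an adjusted p of 0.618 in edgeR's test.

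*pecam1* (ENSDARG00000060263) encodes an adhesion molecule of endothelial cells that, in mammals, is also found on leukocytes and platelets. It had 21.8, 49.3 and 17.4 CPM in the old and 23.9, 25.7 and 27.4 CPM in the young libraries. Old replicate 3 was higher than every other library, and the other old libraries lay below all young ones. With all libraries the log2 fold change was 0.20, with an SE of 0.35 and an adjusted p of 0.799 in edgeR's test, and without old replicate 3 it was -0.39 (adjusted p = 0.536). The direction of *pecam1* was therefore set by 1 library. The second zebrafish copy, *pecam1b* (ENSDARG00000103020), named after its values were seen, did not share the high value of old replicate 3. It had 5.85, 5.09 and 5.00 CPM in the old and 7.81, 8.55 and 8.07 CPM in the young libraries, a log2 fold change of -0.62, with an SE of 0.22 and an adjusted p of 0.216 in edgeR's test. Reads that matched more than 1 position were discarded by the authors, so counts of similar copies are uncertain.

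Old replicate 3 was also the highest library for several other endothelial and endocardial genes, which are named here because their values had been seen. *has2*, a hyaluronan synthase gene of the valve-forming endocardium, had 23.2 CPM in this library and 0.338 to 1.28 CPM in the other 5. For *nrg1*, a neuregulin gene, the values were 13.6 CPM and 0.2 to 1.20 CPM. *bcl6b*, a transcriptional repressor gene of endothelium, had 110 CPM there, 33.4 and 25.1 CPM in the other old libraries and 12.5 to 15.3 CPM in the young ones. All old libraries of *bcl6b* were above all young ones, and its log2 fold change of 2.03 (SE 0.49) had an adjusted p of 0.097 in edgeR's test. Without old replicate 3 the log2 fold change of *bcl6b* was 1.08, and that of *nrg1* was 1.53 in place of 4.07.

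*fli1a* (ENSDARG00000054632), an ETS transcription factor gene used to mark endothelium, varied least of the 10 genes. It had 68.7, 84.5 and 84.5 CPM in the old and 77.0, 82.2 and 82.2 CPM in the young libraries. The old group enclosed the young one, and the highest library was 1.23 times the lowest. It differed between the ages by -0.022 on the log2 scale, with a 95% interval from -0.39 to 0.34 and an adjusted p of 0.972 in edgeR's test. Scaled by library size alone, it was 0.16. The copy *fli1b*, named after its values were seen, had 19.5, 32.3 and 22.7 CPM in the old and 25.4, 21.6 and 20 CPM in the young libraries. These overlapped too, with a log2 fold change of 0.15 (adjusted p = 0.750 in edgeR's test). *erg*, a related ETS factor gene named after its values were seen, lay between 13.4 and 20.9 CPM in all 6 libraries, and its old and young values interleaved.

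*klf2a* (ENSDARG00000042667) encodes a Krüppel-like factor that is switched on by blood flow in zebrafish endocardium. It had 211, 174 and 54.7 CPM in old replicates 1, 3 and 5 and 28.9, 67.4 and 297 CPM in young replicates 1, 2 and 5. The highest library was 10.2 times the lowest, and both belonged to the young group. The means of 147 ± 81.8 CPM (SD, n = 3) and 131 ± 145 CPM (SD, n = 3) gave a log2 fold change of 0.16 with a wide 95% interval from -1.50 to 1.83 (adjusted p = 0.937 in edgeR's test). Leaving out young replicate 5 gave 1.61, and leaving out young replicate 1 gave -0.30. As a fold, this interval runs from 0.353 to 3.55 times the young level, and the fit does not exclude an age difference within it.

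The copy *klf2b* (ENSDARG00000040432), named like *klf4* after its values were seen, put the 6 libraries in the same order as *klf2a*, with 153, 72.9 and 20.4 CPM in the old and 10.5, 28.8 and 228 CPM in the young libraries. Its range was wider still, 21.7-fold. *klf4*, another flow-responsive factor gene of this family, had 8.11, 2.30 and 0.785 CPM in the old and 0.651, 1.55 and 3.47 CPM in the young libraries. Old replicate 5 and young replicate 1 were the lowest libraries for *klf2a* and *klf4* alike. *klf2b* and *klf4* had adjusted p-values of 0.980 and 0.612 in edgeR's test. Of 11974 genes ranked by their correlation with *klf2a* in log2 CPM over the 6 libraries, a ranking added after its spread had been seen, *klf2b* came second (Pearson's r = 0.989) and *klf4* was at rank 166 (r = 0.859). The others among the first 5 were *zgc:113054* (r = 0.993), *sgk1* (r = 0.985), PDK2 (r = 0.985) and TMBIM4 (r = 0.980), in the spelling of the name table. *sgk1* encodes a kinase that, in mammals, is induced by glucocorticoids, and PDK2 a kinase that inhibits pyruvate dehydrogenase. PDK2 had 248, 167 and 17.6 CPM in the old and 1.65, 33.8 and 407 CPM in the young libraries, a range of 246-fold. These correlations rest on 6 libraries that differ in cell content and are a description.

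**Figure D3:**
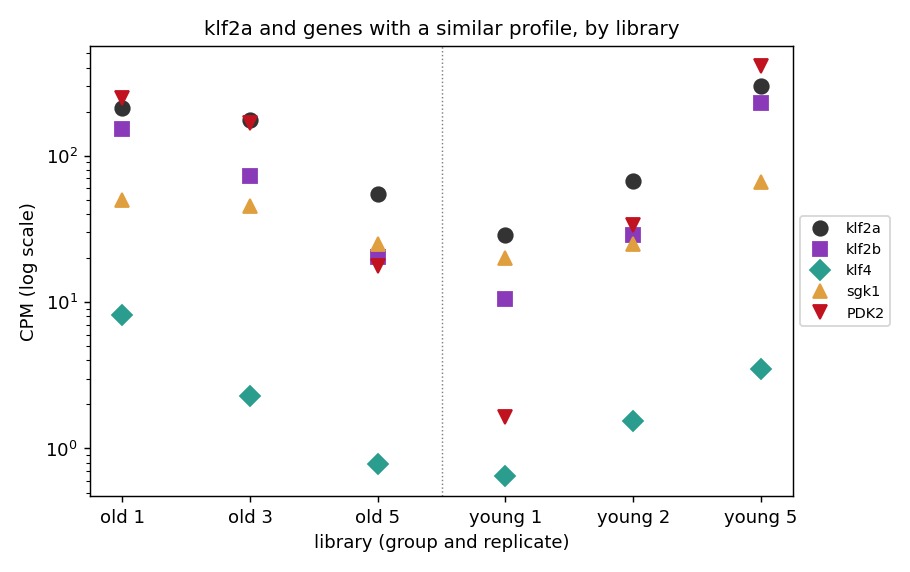
CPM (y axis, log scale) of *klf2a*, *klf2b*, *klf4*, *sgk1* and PDK2 in each library (x axis), with the old libraries left and the young libraries right of the dotted line. Young replicate 5 and old replicate 1 are high and young replicate 1 is low for all 5 genes, so the libraries differ within each age group.

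Of 16 tested genes on a list of shear stress sensing and the cerebral cavernous malformation (CCM) pathway, which restrains Klf2 in endothelium, 0 passed the threshold in edgeR's test and 1 had an unadjusted p under 0.05. Of all genes tested, 15.1% had such a p. The median log2 fold change of the list was -0.01. *heg1*, named after its values were seen and the gene of a receptor at the head of the CCM pathway, had 91.6, 63.7 and 71.5 CPM in the old and 62.5, 89.4 and 160 CPM in the young libraries. Young replicate 5 was the highest library and young replicate 1 the lowest, as for *klf2a*, over a narrower range. By the naming rule, *thbd*, the thrombomodulin gene, had 1.90, 5.14 and 1.40 CPM in the old and 1.00, 0.966 and 0.817 CPM in the young libraries (log2 fold change 1.59, adjusted p = 0.191 in edgeR's test). *pkd2*, a calcium channel gene of flow sensing, had 8.20, 7.98 and 4.63 CPM against 10.2, 10.8 and 8.63 CPM (log2 fold change -0.51, adjusted p = 0.413 in edgeR's test). Neither group pair overlapped.

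*lyve1b* (ENSDARG00000062483) was near the floor. It had 2 reads in each old library and 2, 7 and 6 reads in young replicates 1, 2 and 5, or 0.0826 to 0.107 CPM and 0.1 to 0.338 CPM. Over all libraries of a group these were 6 and 15 reads, a ratio of 0.371 after scaling, with an exact 95% interval for counting error from 0.118 to 1.01. Its adjusted p was 0.475 in edgeR's test, and a difference was not detectable at this depth. The label of lymphatic endothelium thus rests on very few reads in these ventricles.

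Several other genes of lymphatic and scavenger endothelium were better counted, though 1 of those on the list had at most 3 reads in every library. Of 16 tested, 0 rose and 1 fell past the threshold, against 0.519% and 0.338% of all genes tested. At an unadjusted p under 0.05 there were 6, against 15.1% of all genes tested. On the log2 scale the median was 0.57 (0.43 with bounds), with 12 of the 16 fitted higher and 4 lower in old ventricles. *tspan12* (ENSDARG00000032389) is a tetraspanin gene that in mammals acts in the growth of retinal vessels, so its change cannot be assigned to lymphatic endothelium. It fell from 47.9 ± 5.31 CPM (SD, n = 3) in young to 21.6 ± 4.01 CPM (SD, n = 3) in old ventricles. Its values were 22, 25.5 and 17.5 CPM in the old and 49.3, 42.1 and 52.4 CPM in the young libraries, with no overlap. The log2 fold change of -1.15 (SE 0.20) had an adjusted p of 0.040 in edgeR's test and passed in 5 of the 16 other settings. It missed the threshold without old replicate 5 (adjusted p = 0.066) and without young replicate 1, 2 or 5 (0.12, 0.13 and 0.11). *stab1* (ENSDARG00000076484), which encodes a scavenger receptor, had 11.9, 10 and 10.2 CPM in the old libraries and from 17.5 to 25.3 CPM in the young ones (log2 fold change -0.92, adjusted p = 0.090 in edgeR's test). The related *stab2*, named after its values were seen, had 7.30, 8.03 and 11.6 CPM against 6.16, 3.67 and 2.04 CPM (log2 fold change 1.18, adjusted p = 0.190). The groups of *stab1* and *stab2* did not overlap, in opposite directions, and neither passed the threshold. *prox1a*, the gene of a transcription factor of lymphatic endothelium that cardiac muscle also uses, was named after its values were seen and had 35.8 to 61.5 CPM in the old and 56.2 to 71.9 CPM in the young libraries. *lyve1a*, the copy of *lyve1b*, was also named after its values were seen. It had 32, 49 and 25 reads in the old and 19, 9 and 26 reads in the young libraries. These groups overlapped (log2 fold change 0.90, adjusted p = 0.486 in edgeR's test).

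*vwf* (ENSDARG00000077231), the von Willebrand factor gene, had 91.0, 85.6 and 185 CPM in the old and 104, 125 and 92.3 CPM in the young libraries. Old replicate 5 was the highest library, and the other 2 old libraries were the lowest. The log2 fold change was 0.17 (SE 0.29, 95% interval -0.48 to 0.83, adjusted p = 0.797 in edgeR's test), and it was -0.28 without old replicate 5. That library was also the highest in *elnb*, an elastin gene of the bulbus arteriosus named, like *lyz*, after its values were seen, with 12.9 CPM against 0 to 1.81 CPM in the others. It was the highest in *lyz*, the lysozyme gene of myeloid cells, too, with 29.5 CPM against 0.153 to 1.45 CPM. These 2 genes are a small part of the marker sums, which are set mainly by other genes. In old replicate 5, 3 bulbus and smooth muscle markers summed to 87.8 CPM and the leukocyte markers to 658 CPM. Old replicate 1 had more of both, with 115 and 718 CPM. The part of bulbus tissue or myeloid cells in the value of *vwf* was not tested. Thrombocytes can also carry *vwf*, and 6 of their markers summed to 22.6 to 32.3 CPM in old and 33.6 to 53.7 CPM in young ventricles, with *gfi1b* at 0 reads in a library. Of these 6, 1 passed the threshold, against 0.858% of all genes tested. This was *gp9*, which fell from 10.4 ± 1.64 CPM (SD, n = 3) to 2.16 ± 0.808 CPM (SD, n = 3). Its adjusted p was 0.020 in edgeR's test (0.093 without young replicate 1 and 0.11 without young replicate 2).

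Of 13 tested genes that belong to the storage, release or clotting partners of von Willebrand factor, 1 rose and 0 fell past the threshold. Over all genes tested, 0.519% rose and 0.338% fell past it. At an unadjusted p under 0.05 there were 6 of the 13, against 15.1% of all genes tested. On the log2 scale the median was 0.11 (0.10 with bounds). *plaua* (ENSDARG00000075265), a urokinase-type plasminogen activator gene, rose from 0.181 ± 0.0716 CPM (SD, n = 3) to 1.67 ± 0.836 CPM (SD, n = 3). It had 58, 20 and 32 reads in the old and 4, 5 and 2 reads in the young libraries. The log2 fold change of 3.16 (SE 0.59) had an adjusted p of 0.048 in edgeR's test and passed in 6 of the 16 other settings. It missed the threshold without old replicate 1 (adjusted p = 0.068) and without young replicate 1, 2 or 5 (0.14, 0.18 and 0.13). *f8*, named after its values were seen, encodes the clotting factor that von Willebrand factor carries. It had 1430, 1250 and 1550 CPM in the old and 1690, 1950 and 2140 CPM in the young libraries (log2 fold change -0.45, adjusted p = 0.177 in edgeR's test). *adamts13*, the gene of the protease that cleaves von Willebrand factor, was also named after its values were seen and had 1 read in old replicate 5 and 0 in the other libraries.

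Within a library, the 9 well-counted genes did not move as 1 block. Over the 36 pairs of these genes, Pearson's r of log2 CPM across the 6 libraries had a median of 0.298 and ranged from -0.673 for *vwf* with *pecam1* to 0.8 for *tek* with *tie1*. *kdrl* followed *cdh5* (r = 0.794), *tie1* (r = 0.769) and *tek* (r = 0.730). In contrast, 12 pairs were negative. These values come from 6 shared libraries and are a description. Set against the mean log2 CPM of the other 8 genes in the same library, which removes any scaling between libraries, *kdrl* stood 1.18, 0.97 and 1.27 higher in the old and 1.44, 1.41 and 1.92 higher in the young libraries. On this scale the groups of 1 of the 9 genes, *kdrl*, did not overlap, with a difference of -0.45. The mean set against *kdrl* includes *klf2a*, which on the same scale stood at 0.94 in old replicate 1 and at -1.74 in young replicate 1. The separation of *kdrl* therefore depends in part on *klf2a*, and it was not computed without *klf2a*. In CPM, 20% of all genes tested had groups without overlap, and the share on the present scale was not computed. The groups of the other 8 genes overlapped, and their differences lay between -0.42 for *tek* and 0.76 for *klf2a*.

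The mean standardised level of the 9 genes was lowest in young replicate 1 and old replicate 5 (-0.50 and -0.44) and highest in young replicates 2 and 5 (0.37 and 0.78). The 5 genes whose log2 CPM followed this mean most closely over the 6 libraries, out of 11974 ranked, were IFRD1 (r = 0.992), AGRN (r = 0.980), *uck2b* (r = 0.979), *slc6a22.1* (r = 0.978) and *tuft1a* (r = 0.975). AGRN encodes agrin, a proteoglycan of basement membranes, and had 67.4, 68.8 and 60.5 CPM in the old and 64.5, 77.7 and 85.6 CPM in the young libraries. None of the 5 was on an endothelial list or passed the threshold in edgeR's test.

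Beyond the 10 genes, 118 other endothelial genes from 9 lists were tested. In edgeR's test, 2 of them passed the threshold (*tspan12*, *plaua*), against 0.858% of all genes, and DESeq2's Wald test called 18 of the 110 to which it gave an adjusted p, against 7.01% of all genes. At an unadjusted p under 0.05 there were 37 of 118, against 15.1% of all genes tested. The groups did not overlap in 34, against 20% of all genes tested. Of these endothelial genes, 93 had a mean log2 CPM of at least 1. Among the 93, 1 passed the adjusted threshold, against 1.37% of all genes at that level. An unadjusted p under 0.05 was found for 28 of the 93 (30.1%), against 18.6% of all such genes, and 28.0% against 25.1% had groups without overlap. The directions were mixed, with 65 fitted higher and 53 fitted lower in old ventricles and a median of 0.07 on the log2 scale (0.04 with bounds).

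**Figure D4:**
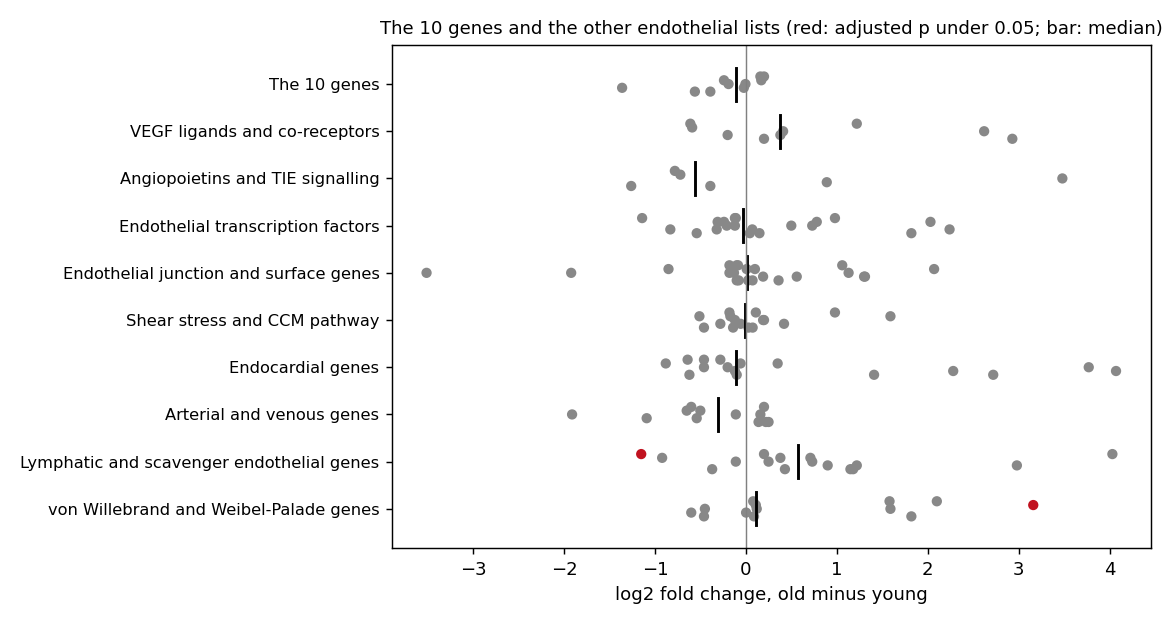
Fitted log2 fold change (x axis, old minus young) of the 10 genes and of each tested gene on the 9 other endothelial lists (rows), with the list's median as a black bar and genes past the threshold of edgeR's test in red. Apart from *lyve1b*, the 10 genes lie within 0.6 of 0, *tspan12* at -1.15 and *plaua* at 3.16 are the red points, and genes on several lists appear in each.

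Of 9 tested VEGF ligands and co-receptors, 0 passed the threshold, while 3 had p under 0.05 before adjustment (15.1% of all genes tested did). The median was 0.38 on the log2 scale (0.29 with bounds). Besides *kdr*, the naming rule gave *vegfba*, a VEGF ligand gene, which had 4, 6 and 9 reads in the old and 0, 1 and 1 reads in the young libraries (adjusted p = 0.189 in edgeR's test). *vegfc*, the ligand gene for lymphatic growth, named after its values were seen, had 2.63, 3.27 and 1.07 CPM in the old and 0.851, 1.35 and 0.766 CPM in the young libraries. These groups overlapped (log2 fold change 1.22, adjusted p = 0.280).

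Of 20 tested transcription factor genes other than *fli1a* and *klf2a*, 0 passed, while 5 had p under 0.05 before adjustment. Of all genes tested, 15.1% did. The median was -0.03 on the log2 scale (-0.11 with bounds). *tal1* (ENSDARG00000019930), a factor shared by endothelial and blood cells, had 7.39, 10.8 and 7.81 CPM in the old and 24.3, 15 and 17.8 CPM in the young libraries. Its log2 fold change of -1.14 (SE 0.25) had an adjusted p of 0.080 in edgeR's test. Erythrocyte markers moved with it: *hbaa1*, an alpha globin gene, had 217, 273 and 216 CPM in the old and 1460, 536 and 810 CPM in the young libraries. This gene fell past the threshold (adjusted p = 0.031 in edgeR's test, and 0.060 without young replicate 5), and passed in 10 of the 16 other settings. The part of red cells in the value of *tal1* was not tested.

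Of 22 tested junction and surface genes, 0 passed, while 7 had p under 0.05 before adjustment (15.1% of all genes tested did). The median was 0.02 on the log2 scale (0.03 with bounds). *cav1* (ENSDARG00000103747), the caveolin gene of endothelial surface pits, had 174, 139 and 129 CPM in the old and 243, 264 and 291 CPM in the young libraries. The groups stood well apart, and the log2 fold change of -0.85 (SE 0.17) had an adjusted p of 0.058 in edgeR's test and passed in 3 of the 16 other settings. *s1pr1* (ENSDARG00000042690), the gene of a sphingosine 1-phosphate receptor, had 5.85, 8.67 and 4.13 CPM in the old and 1.00, 0.966 and 2.45 CPM in the young libraries (log2 fold change 2.07, adjusted p = 0.076 in edgeR's test). Lymphocytes carry this receptor too. The leukocyte marker sums given above were higher in old ventricles, but that list holds no marker chosen for lymphocytes. Old replicate 3 and young replicate 5, highest of their groups in *s1pr1*, had the lowest leukocyte sums of their groups, 263 and 135 CPM. Of these sums, *cd74a*, named after its values were seen, alone gave 143 and 82.8 CPM. The sums cannot separate lymphocytes from other leukocytes. The part of leukocytes in the value of *s1pr1* was not tested.

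Of 16 tested endocardial genes, 0 passed, while 6 had p under 0.05 before adjustment (15.1% of all genes tested did). The median was -0.11 on the log2 scale, the same as for the 10 genes. By the naming rule these were *nrg1*, given above, and *gata6* (ENSDARG00000103589), a cardiac transcription factor gene, with 58.6, 65.0 and 55.4 CPM in the old and 88.7, 81.8 and 109 CPM in the young libraries (log2 fold change -0.64, SE 0.18 and adjusted p = 0.128 in edgeR's test). *nfatc1*, a marker of endocardium named after its values were seen, had 14.7, 29.7 and 17.6 CPM in the old and 27.7, 21.4 and 17.6 CPM in the young libraries, and its groups overlapped. Of 12 arterial and venous genes, 0 passed, 1 had an unadjusted p under 0.05 and 0 had groups without overlap. Of all genes tested, 15.1% had such a p and 20% had groups without overlap. The median of these 12 was -0.31 on the log2 scale (-0.11 with bounds).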

How the data were processed

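RNA-Seq was performed on 3 old and 3 young ventricle libraries (poly(A)-selected, stranded, single-end). Per the submitters' notes and the study's methods, STAR 2.5.4b aligned the reads to GRCz11, and the authors made the deposited raw counts per Ensembl gene with featureCounts 1.6.3, on uniquely mapped reads only. No column was left without a sample. Here, 24835 of 32520 genes, those with a read in at least 1 library, were scaled by TMM and tested with edgeR 4.0.16 (quasi-likelihood, age as the only factor, Benjamini-Hochberg, threshold 0.05) in R 4.3.3. Standard errors were taken as the log2 fold change over the square root of F, and 95% intervals from the t distribution with the fit's degrees of freedom. DESeq2 1.42.0, limma 3.58.1 and 14 other settings were tried besides. The code for the fits was run on simulated counts first. Correlations used log2(CPM + 0.5). For medians with bounds, a group with at most 3 reads in each library was set to the floor.

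Gene lists were matched to identifiers by symbol, in either case, and by RefSeq synonym; 118 of 157 symbols on the 9 endothelial lists had a single identifier. The name table covers 29201 genes. The genes named were the 10 genes, those past the threshold, the 2 per list with the smallest p without overlap, and the 5 most similar profiles; others are said to be named after their values were seen. A gene that this rule names is not reported here. The 10 genes and the lists were chosen with earlier results of these data known. Transcript lengths were not used, so levels are compared within a gene only. The replicate numbers 1 and 5 occur in both ages without a stated pairing.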

Additional observations from a re-analysis of the deposited data

How the results depend on the processing

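In all 16 alternatives, 0 of the 10 endothelial genes passed the threshold. Their median log2 fold change, -0.11, lay between -0.29 and -0.03 with single libraries left out. It was -0.20 with the replicate block, 0.08 with library size alone and 0.01 with filterByExpr, which gave no value for *lyve1b*. *kdrl*, *cdh5*, *tie1*, *tek* and *lyve1b* kept a negative sign in every setting that gave a value. The sign of *fli1a* turned with library size alone (0.16) and filterByExpr (0.0062), and its values ranged from -0.071 to 0.071 with single libraries left out. That of *flt1* turned with RLE factors (0.0052), library size alone (0.19), filterByExpr (0.023), DESeq2 (0.0052) and the replicate block (0.10), and ranged from -0.41 to 0.29 with single libraries left out. *pecam1* was -0.39 with the replicate block. With single libraries left out, *pecam1* ranged from -0.39 to 0.47, *klf2a* from -0.30 to 1.61 and *vwf* from -0.28 to 0.37.

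Of all genes, 213 passed, and 65 did with at least 10 reads summed, 111 with filterByExpr, 120 without a filter, 1229 with DESeq2, 94 with limma-voom, 111 with bias-adjusted deviances and 126 with the replicate block. With single libraries left out, the count lay between 19 (young replicate 2) and 412 (old replicate 1). Of the other endothelial genes, 2 passed, and 0 did with at least 10 reads summed, filterByExpr, no filter, limma-voom or bias-adjusted deviances, 18 with DESeq2, and 0 to 5 with single libraries left out. It was 0 without young replicate 1, 2 or 5, and 5 without old replicate 1. The cause of these shifts was not tested. Same-numbered libraries deviated together with r = -0.082 (number 1) and 0.0418 (number 5), and the labels do not pair them. Depth limits *lyve1b* alone among the 10 genes.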

Other observations

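Genes of pericytes, the mural cells that wrap small vessels, were measured beside the endothelial ones. Of 6 markers, 1 rose past the threshold, against 0.519% of all genes tested. This was *rgs5a* (ENSDARG00000002644), a regulator of G protein signalling. It had 36.0, 45.2 and 36.9 CPM in the old and 19.8, 12.9 and 10.9 CPM in the young libraries (log2 fold change 1.43, standard error 0.25, adjusted p = 0.040 in edgeR's test). It passed in 7 of the 16 other settings, with adjusted p-values from 8e-05 to 0.20, and missed the threshold without old replicate 3 (0.07), young replicate 2 (0.20) or young replicate 5 (0.099). *pdgfrb*, a receptor gene of pericytes and fibroblasts named after its values were seen, had 12.6, 30.7 and 15.8 CPM in the old and 7.81, 7.49 and 5.62 CPM in the young libraries, without overlap (adjusted p = 0.082 in edgeR's test). For *cspg4* and *abcc9*, also named after their values were seen, the log2 fold changes were -0.60 and -0.42 (adjusted p = 0.393 and 0.443 in the same test). For *kcnj8* and *notch3*, named in the same way, they were 1.64 and 0.42 (adjusted p = 0.353 and 0.618 in the same test). Of the 6 markers, 4 were fitted higher and 2 lower in old ventricles, with a median of 0.93 on the log2 scale. The summed level of the 6 markers overlapped, at 158 to 250 CPM in old and 154 to 223 CPM in young ventricles. The largest part was *abcc9*, with 75.8 to 130 CPM in old and 113 to 154 CPM in young ventricles. The part of pericytes in the value of *abcc9*, and so in the sum, was not tested.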
